A study of Danio rerio with 30 samples.

Results

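Spleens of control zebrafish incubated at 32 °C were set against spleens of control zebrafish incubated at 28 °C, 5 libraries against 5, of the 30 small RNA libraries in the series. The libraries were taken by their temperature and treatment labels (replicates 3, 6, 7, 8 and 9 at 32 °C and replicates 1, 2, 3, 5 and 7 at 28 °C), and no measured value entered the choice. All 10 came from adult AB fish, 100 days after fertilisation, that carry the control label and received no LPS as far as the labels say. Whether controls were anaesthetised or injected with a vehicle, the sex of the fish and any pooling of spleens are not recorded in the labels. Embryos and larvae grew at 32 ± 0.5 or 28 ± 0.5 °C; the labels also place adults at 28 ± 0.5 °C without saying whether these are the sampled fish or their parents. The other 20 libraries are 5 controls at 24 °C and 15 LPS spleens, 5 at each of the 3 temperatures, taken 12 h after injection of 2 µl of 50 mg/ml Pseudomonas aeruginosa LPS into the body cavity. They entered the fit to estimate the spread and are named below only where they are set beside the controls. Replicates are numbered in the labels, but nothing states that each is a separate animal, so p-values measure the spread between these libraries.

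MicroRNAs are short RNAs that guide Argonaute proteins to messenger RNAs with a matching site, which are then degraded or translated less. Many are made mostly in 1 organ or cell lineage. The fish spleen stores and filters blood and holds lymphocytes, macrophages, red cells and thrombocytes in a stroma of vessels and smooth muscle. The study asked whether the temperature of early life leaves a trace in the adult miRNA profile, and the 28 °C group stands for the usual rearing temperature of the species.

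Each row of the deposited count table is 1 miRNA name, with a prefix for the species it was named in (dre for zebrafish) or, in some rows, a chromosome and a number. Of 8866 rows, 364 passed a filter on low counts and were tested. Zebrafish names made up 161 of the tested rows and 91.0% of the counts of the 10 libraries, chromosome names 61 rows and 1.66%, and names of other species the remaining rows and 7.05%. Rows named after other species may share reads with a zebrafish row of near-identical sequence, so their levels are uncertain. Levels are CPM, counts scaled to a common library total after TMM correction, and differences are log2 of 32 over 28 °C with the standard error of the fit.

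The libraries differed widely in depth. Totals at 32 °C ran from 199431 to 7584818 counts with a median of 1016401, and totals at 28 °C from 304126 to 834140 with a median of 681111. Replicates 7 and 8 at 32 °C held 7584818 and 4709113 counts, more than any control library at 28 °C, while replicate 3 at 32 °C was the shallowest of the series. The ratio of geometric mean totals was 2.29 (two-sided exact permutation test, p = 0.278, 0.370 adjusted over 4 measures). Without replicate 3 at 32 °C the log2 difference in totals was 1.90 in place of 1.198 (exact permutation p = 0.0476, unadjusted). With any other single library left out, the same permutation test gave p from 0.238 to 0.556. Libraries held 509 ± 281 detected rows at 32 °C and 304 ± 66.6 at 28 °C (means ± SD, 5 libraries a group; exact permutation p = 0.119, adjusted 0.238), with a difference of 268 rows without replicate 3 at 32 °C (exact permutation p = 0.0317, unadjusted). Leaving out any other single library gave permutation p from 0.111 to 0.238 for detected rows. After each library was thinned to 199431 counts, 363.4 ± 99.03 rows were detected at 32 °C and 247 ± 37.4 at 28 °C (exact permutation p = 0.0635, adjusted 0.238); the smallest p that 5 against 5 allows is 0.00794. The libraries of 1 group were not much more alike than libraries of different groups: the mean correlation of log2 CPM was 0.650 among the 32 °C libraries, 0.684 among the 28 °C libraries and 0.637 between the groups.

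Markers of spleen and blood were present in both groups. The zebrafish rows of the lymphocyte miRNAs miR-150 and miR-181a-5p, of the myeloid miRNA miR-223, of the red cell miRNAs miR-451 and miR-144-5p, of endothelial miR-126b-3p and of smooth muscle miR-143 had counts in all 10 libraries. The row of miR-142a-3p, a marker of all blood lineages, was low, with a median of 36.2 CPM and counts in 9 of the 10. In whole tissue, fewer cells of a type and less RNA per cell cannot be told apart.

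No row passed the test between 32 and 28 °C: edgeR's quasi-likelihood test called 0 of 364 rows (0%), with a smallest adjusted p of 0.143. At an unadjusted p under 0.05 there were 75 rows (20.6%), of which 64 (17.6%) had higher and 11 (3.02%) had lower CPM at 32 °C. Of the 75, 38 carried zebrafish names, 17 had counts in all 10 libraries and 22 had no count in any library at 28 °C. These 22 were all of the tested rows with counts at 32 °C alone, and the 1 row with counts at 28 °C alone was also among the 75. Such rows could pass the filter through the group where they were high. The share of 20.6% and the split of 64 against 11 are therefore partly set by the filter. DESeq2 called 21 of the same 364 rows (5.77%; 14 higher, 3.85%, and 7 lower, 1.92%, with 28 rows given no adjusted p), and limma voom with library weights called 44 (12.1%; 38 higher, 10.4%, and 6 lower, 1.65%). The 9 rows that DESeq2 and voom both called were dre-miR-122, dre-miR-7a, dre-miR-10a-5p, dre-miR-25-5p, dre-miR-181c-5p, dre-miR-203b-3p, dre-miR-733, ccr-miR-217 and ssa-miR-30d-2-3p, and of these 5 had counts in at most 1 of the 5 libraries at 28 °C.

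The differences leaned upward as a whole. The median row stood at 0.86 under TMM scaling, and at 0.62 under RLE scaling and 0.46 under total counts alone, with 237 of 364 rows (65.1%) above 0 under TMM. Among the 108 rows with counts in all 10 libraries the median was 0.58, and 70 were above 0. Without replicate 7 at 32 °C the median of all rows was -0.01, and with the log2 total as a covariate it was 0.01. Leaving out 1 of the 20 libraries of the other groups, which also changed the rows that passed the filter (376 to 389), moved this median between 0.33 and 1.05. For some rows the difference is therefore also given relative to the median row of the same scaling. Because the median row itself fell to -0.01 without replicate 7 at 32 °C, a drop in a row's difference without that library includes this general shift. A difference without that library is better set beside the difference relative to the median row.

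**Figure D1:**
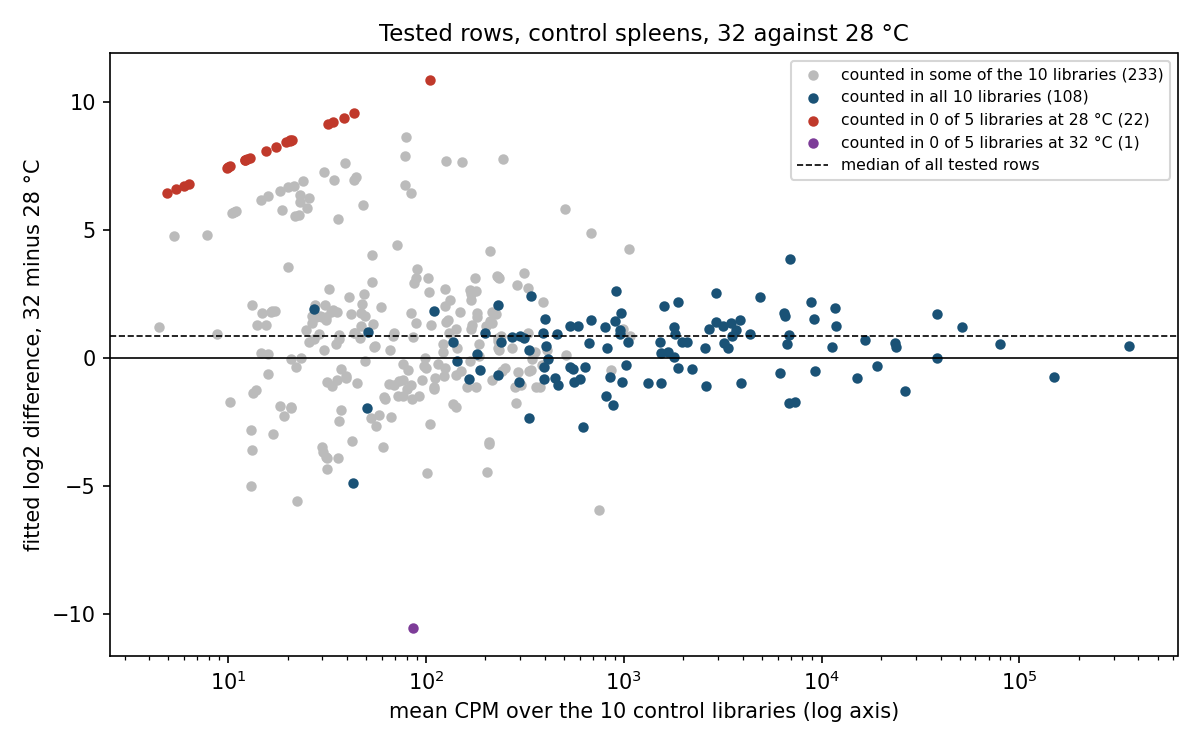
Fitted log2 difference (32 minus 28 °C, control spleens) against mean CPM over the 10 control libraries on a log axis, 1 point for each of the 364 tested rows, coloured by the libraries that held counts. Most differences above 5 belong to rows with few or no counts at 28 °C. The 108 rows counted in all 10 libraries have a median of 0.58, under the dashed line at the overall median of 0.86.

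Among the most abundant miRNAs of the spleen no row was called, and the differences ran in both directions. The row of dre-let-7a, a member of the let-7 family that restrains growth and developmental timing genes, held 434409, 439863, 321179, 532946 and 356934 CPM at 32 °C against 286915, 146628, 343433, 387400 and 333693 CPM at 28 °C. The groups overlapped, with a log2 difference of 0.48 ± 0.34 (adjusted p = 0.519; 95% interval -0.22 to 1.17), which is 0.38 under the median row. The row of dre-let-7b averaged 38476 ± 19853 CPM at 32 °C and 38389 ± 6406 CPM at 28 °C (here and below ± SD, 5 libraries a group), a difference of 0.00 ± 0.43. It was negative under 42 of 45 other ways of processing and ran from -0.65 to 0.09. The sign was thus mostly negative, but these data show no difference from 0. For dre-miR-92a-3p, of the miR-17-92 group made by proliferating and blood-forming cells, the means were 112566 ± 96535 CPM at 32 °C and 185969 ± 139341 CPM at 28 °C, with a log2 difference of -0.72 ± 0.50 (adjusted p = 0.519), or -1.58 relative to the median row. The row of dre-miR-21, which macrophages and stroma raise in inflammation, averaged 94203 ± 53376 CPM at 32 °C and 64905 ± 15008 CPM at 28 °C. Its difference was 0.54 ± 0.47 with all libraries and -0.23 without replicate 7 at 32 °C. Relative to the median row it was -0.32 with all libraries and -0.23 without that replicate, so it lay under the median row in both.

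In dre-let-7f the 5 libraries at 32 °C lay above the 5 at 28 °C. They held 40092, 48936, 127901, 85066 and 55372 CPM at 32 °C, against 36071, 14573, 39675, 29535 and 36497 CPM at 28 °C. The lowest value at 32 °C and the highest at 28 °C were nearly equal. The separation rested on the TMM factors, 0.828 for replicate 6 at 32 °C and 1.08 for replicate 3 at 28 °C. By total counts alone, replicate 6 at 32 °C lay below replicate 3 at 28 °C. The log2 difference was 1.19 ± 0.44 (adjusted p = 0.143) and 0.43 without replicate 7 at 32 °C. Relative to the median row it was 0.33 with all libraries and 0.44 without that replicate. Of 33 tested rows in the let-7 list, which adds miR-98, miR-99, miR-100 and miR-125, 20 were above 0 and 13 below, 0 were called and the median was 0.42. These rows made up 56.0 ± 12.4% of the counts at 32 °C and 51.3 ± 13.8% at 28 °C.

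The highest-ranked row was dre-miR-122, the miRNA that makes up most of the miRNA in vertebrate liver cells and is scarce elsewhere. Its level was 3020, 2382, 14381, 14340 and 30449 CPM in replicates 3, 6, 7, 8 and 9 at 32 °C, against 526, 481, 909, 874 and 1683 CPM in replicates 1, 2, 3, 5 and 7 at 28 °C. The groups did not overlap, and the ratio of mean CPM was 14.4. The log2 difference was 3.85 ± 1.07 (unadjusted p = 0.000912, adjusted p = 0.143), 2.99 above the median row, and it ranged from 2.65 to 4.07 over 45 other ways of processing. It was 3.33 without replicate 7 at 32 °C (adjusted p = 0.245) and 3.25 with the log2 total as a covariate. A fit restricted to the 10 libraries called this row (adjusted p = 0.0126, 218 rows tested). At 24 °C the controls averaged 1433 ± 1038 CPM, beside 895 ± 482 CPM in controls at 28 °C and 12914 ± 11407 CPM in controls at 32 °C.

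**Figure D2:**
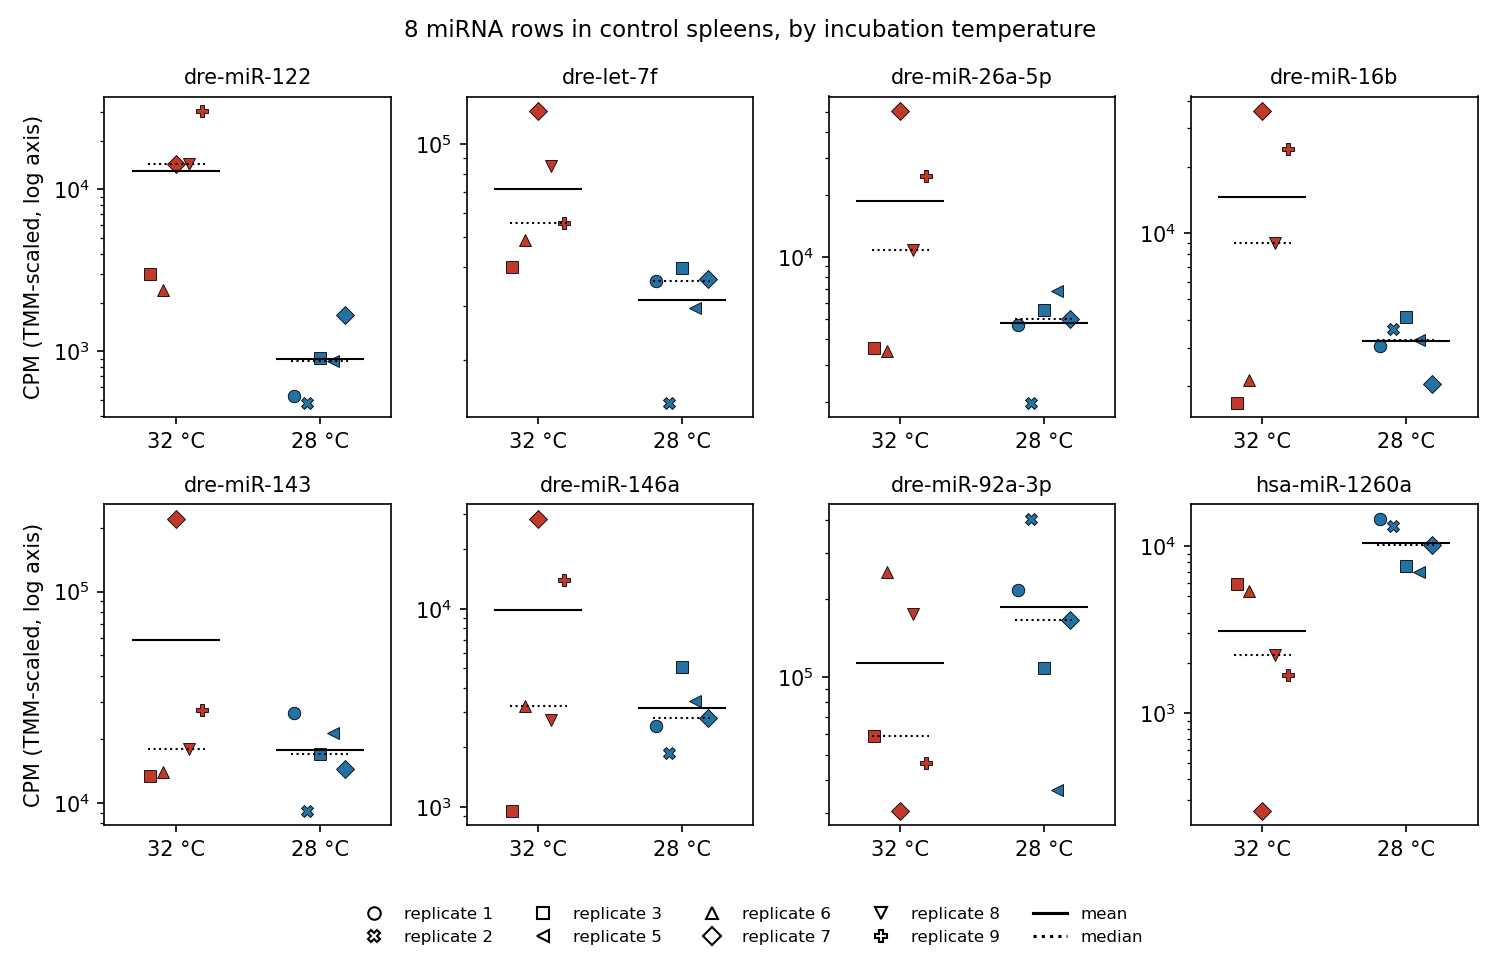
CPM on a log axis in each control library for 8 rows, 32 °C (red) left and 28 °C (blue) right, with 1 marker shape per replicate number, a solid line at the mean and a dotted line at the median. The 5 values at 32 °C do not overlap the 5 at 28 °C in dre-miR-122, dre-let-7f (where the nearest values, 40092 CPM at 32 °C and 39675 CPM at 28 °C, almost touch) and hsa-miR-1260a, while in dre-miR-143 replicate 7 alone, at 220449 CPM, sets the mean at 32 °C.

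Rows of pancreatic miRNAs were also at higher CPM at 32 °C in most libraries. The row of dre-miR-375, an islet miRNA, held 5033, 2261, 992, 4566 and 2529 CPM at 32 °C against 747, 1382, 8.52, 285 and 923 CPM at 28 °C. Only replicate 7 at 32 °C fell within the range of the 28 °C group, and the log2 difference was 2.20 ± 0.91 (adjusted p = 0.176), 1.34 above the median row. The row of dre-miR-7a, an islet and neural miRNA, averaged 303 ± 396 CPM at 32 °C and 1.37 ± 1.60 CPM at 28 °C. The row of dre-miR-217, of the exocrine pancreas, had counts in 4 of 5 libraries at 32 °C, with a mean of 86.4 ± 136 CPM, and in 0 of 5 at 28 °C. Set against a limit of 3 counts over the whole 28 °C group, 0.921 CPM, this is at least 93.8-fold higher at 32 °C. Replicate 7 held 75.1% of the 32 °C sum, and without it the mean was 26.9 CPM and the limit at least 29.2-fold. The duplicate row ccr-miR-217 averaged 156 ± 146 CPM at 32 °C and 1.31 ± 2.26 CPM at 28 °C. The exocrine row dre-miR-216b went the other way, with 30.3 ± 55.2 CPM at 32 °C and 59.3 ± 132.7 CPM at 28 °C (-0.96 ± 2.43). Of 6 tested pancreatic rows, 5 were above 0 (65.1% of all rows were), 4 had an unadjusted p under 0.05 (20.6% of all rows did) and 0 were called, with a median of 4.92 (4.84 with dre-miR-217 placed at its limit). The 4 hold both dre-miR-217 and its duplicate ccr-miR-217. All 22 tested rows with no count at 28 °C, dre-miR-217 among them, had such a p. The 4 of 6 rows are therefore no test of the list.

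The summed share of pancreatic rows was 0.217 to 0.615% of counts at 32 °C and 0.0333 to 0.130% at 28 °C. That of miR-122 rows was 0.197 to 2.86% at 32 °C and 0.0442 to 0.177% at 28 °C. Neither pair of ranges overlapped. Of the 21 lists, the only other one with separate ranges was that of miR-1260a, miR-1260b and miR-7977. The miR-122 list had 1 tested row, dre-miR-122, so its share largely repeats the result given above. The gut and epithelial rows did overlap, at 0.0213 to 1.37% at 32 °C and 0.0168 to 0.307% at 28 °C. Of 13 such rows 9 were above 0 and 0 were called, with a median of 1.30. The gut row dre-miR-192 averaged 991 ± 1966 CPM at 32 °C and 17.6 ± 34.1 CPM at 28 °C, with counts in 3 libraries at 32 °C and in 4 at 28 °C. Replicate 9 at 32 °C alone held 4499 CPM, and the log2 difference of 5.799 ± 2.55 was 2.12 without it. The epidermal row dre-miR-203b-3p had 1604, 91.8 and 739 CPM in replicates 7, 8 and 9 at 32 °C and no count in replicates 3 and 6, against 10.4 CPM in 1 library at 28 °C and none in the other 4. For oni-miR-200a, of an epithelial family, the means were 156 ± 226 CPM at 32 °C and 0.521 ± 1.17 CPM at 28 °C. Other rows of these families had lower means at 32 °C: dre-miR-200a-3p averaged 51.5 ± 102 CPM at 32 °C and 95.5 ± 179 CPM at 28 °C (-0.88 ± 2.41), and ola-miR-192-3p 38.8 ± 81.0 CPM at 32 °C and 376 ± 356 CPM at 28 °C (-3.27 ± 2.62). The differences of dre-miR-200c-3p and ipu-miR-205 were -0.46 ± 2.24 and -1.81 ± 2.501. The part of other tissue in these differences was not tested.

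Other organ lists held few counts. The 3 tested rows of striated muscle were all above 0, with shares of at most 0.0842% at 32 °C and 0.0261% at 28 °C. Among them dre-miR-206-3p averaged 36.9 ± 39.0 CPM at 32 °C and 0.521 ± 1.17 CPM at 28 °C, and ccr-miR-133a-3p 20.6 ± 36.25 CPM at 32 °C and 0.284 ± 0.635 CPM at 28 °C. Of 3 neural and sensory rows 1 was above 0, hhi-miR-182, with a mean of 20.0 ± 17.7 CPM at 32 °C and no count at 28 °C. The row of dre-miR-9-5p, a neural miRNA, averaged 21.2 ± 25.5 CPM at 32 °C and 46.0 ± 100 CPM at 28 °C. The 1 gonad row, ssa-miR-202-5p, averaged 0.579 ± 1.13 CPM at 32 °C and 25.5 ± 56.4 CPM at 28 °C.

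Several vascular and smooth muscle rows, though not dre-miR-145-3p, had high means at 32 °C that rested largely on replicate 7. The row of dre-miR-143, which smooth muscle makes together with miR-145, held 13412, 13974, 220449, 18062 and 27364 CPM in replicates 3, 6, 7, 8 and 9 at 32 °C, against 26610, 9200, 16939, 21443 and 14505 CPM in replicates 1, 2, 3, 5 and 7 at 28 °C. The other 4 libraries at 32 °C lay within or just above the range of the 28 °C group; the log2 difference was 1.73 ± 0.64 (adjusted p = 0.143; 0.87 above the median row) with all libraries and -0.35 without replicate 7 at 32 °C. For dre-miR-126b-3p, an endothelial miRNA that supports vessel integrity, the means were 10039 ± 9637 CPM at 32 °C and 2956 ± 900 CPM at 28 °C. Its difference of 1.76 ± 0.75 (adjusted p = 0.181) was 0.52 without replicate 7 at 32 °C. The row of dre-miR-145-3p averaged 1577 ± 1499 CPM at 32 °C and 255 ± 239 CPM at 28 °C (2.63 ± 1.33, adjusted p = 0.250). Its difference was still 1.51 without replicate 7 at 32 °C. Of the miR-145 rows named in other species, oni-miR-145 had counts in all 10 libraries. It averaged 1830 ± 1194 CPM at 32 °C and 1759 ± 750 CPM at 28 °C (0.06 ± 0.82). The differences of ssa-miR-145-3p and mmu-miR-145a-3p were 4.03 ± 2.41 and 4.42 ± 2.32. For dre-miR-145-5p the means were 167 ± 100.8 CPM at 32 °C and 107 ± 148.2 CPM at 28 °C. Its difference of 0.64 ± 1.70 was -0.28 without that library. Relative to the median row it was -0.22 with all libraries and -0.27 without replicate 7 at 32 °C. Of 24 vascular and stromal rows 20 were above 0 and 0 were called, and their median of 0.96 lay 0.10 above that of all rows. Rows below 0 included dre-miR-199-3-3p (-0.94 ± 1.53), dre-miR-199-5p (-0.84 ± 0.83) and dre-miR-214 (-1.05 ± 1.66). The list took 17.5% of the counts of replicate 7 at 32 °C, 1.82 to 4.37% of the other 4 libraries at 32 °C and 1.18 to 3.72% of the libraries at 28 °C.

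The red cell rows dre-miR-451 and dre-miR-144-5p followed replicate 7 too. The row of dre-miR-451, which is cut by Argonaute itself and matures red cells, held 1704, 1724, 52781, 3945 and 7886 CPM at 32 °C against 2282, 1216, 6681, 9721 and 4007 CPM at 28 °C. Its log2 difference was 1.51 ± 0.90 (adjusted p = 0.386) with all libraries and -0.79 without replicate 7 at 32 °C. The row of dre-miR-144-5p, from the same cluster, averaged 4997 ± 7596 CPM at 32 °C and 853 ± 481 CPM at 28 °C (2.55 ± 1.15; 0.46 without replicate 7 at 32 °C). For ssa-miR-144-5p the means were 2026 ± 2887 CPM at 32 °C and 105 ± 151 CPM at 28 °C, and its difference of 4.27 ± 1.498 was 2.23 without that library. In oni-miR-451b the means were 29.1 CPM at 32 °C and 0.284 CPM at 28 °C, with counts in 1 library at 28 °C. Its difference of 6.15 ± 2.53 was still 5.68 without replicate 7 at 32 °C. The row of ccr-miR-144, with counts in 2 libraries of each group, went the other way. Its means were 15.1 CPM at 32 °C and 96.9 CPM at 28 °C (-2.65 ± 2.57). Of 5 red cell and thrombocyte rows 4 were above 0 and 0 were called, with a median of 2.55. They made up 5.19% of replicate 7 at 32 °C, 0.197 to 1.32% of the other 4 at 32 °C and 0.202 to 1.42% of the libraries at 28 °C.

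**Figure D3:**
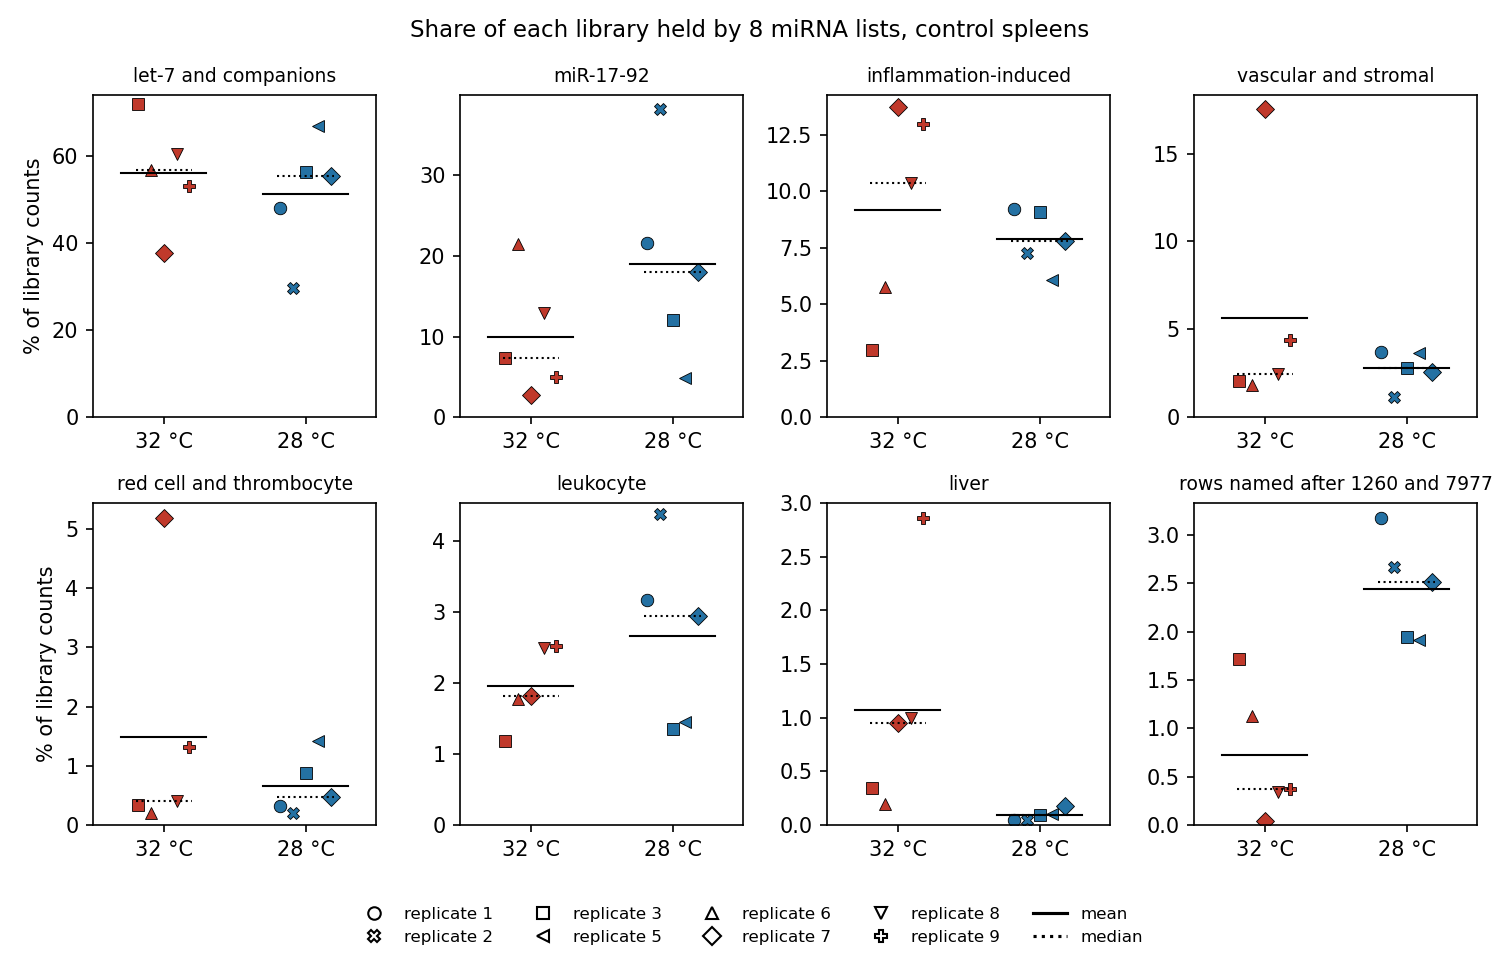
Percent of each library's counts held by 8 lists of miRNAs, 32 °C (red) left and 28 °C (blue) right, with the same marker shapes, means (solid) and medians (dotted). Replicate 7 at 32 °C stands apart in the vascular and stromal list at 17.5% and in the red cell and thrombocyte list at 5.19%, whereas the liver share and the share of the miR-1260a, miR-1260b and miR-7977 rows separate all 5 libraries of one group from all 5 of the other.

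Leukocyte miRNAs did not separate the groups. Of 22 tested rows of miR-142, miR-150, miR-155, miR-181 and miR-223, 13 were above 0 and 9 below, 0 were called, and the median of 0.55 lay 0.31 under that of all rows. The list took 1.96 ± 0.564% of the counts at 32 °C and 2.66 ± 1.27% at 28 °C. The row of dre-miR-150, a miRNA of mature lymphocytes, averaged 4559 ± 2611 CPM at 32 °C and 2490 ± 1000 CPM at 28 °C (0.87 ± 0.57, adjusted p = 0.465), and it was -0.24 when rows of the same name in other species were added to it. The row of dre-miR-181c-5p held 179, 119, 28.9, 13.1 and 104 CPM at 32 °C, against 2.61 CPM in replicate 2 and no count in the other 4 libraries at 28 °C. All 5 libraries at 32 °C were above those at 28 °C, but only 2 counts stood behind the level at 28 °C. The miR-181c rows named in other species did not separate the groups. Among them abu-miR-181c had counts in all 10 libraries, with means of 347 CPM at 32 °C and 447 CPM at 28 °C (-0.37 ± 0.96). The differences of ipu-miR-181c and gmo-miR-181c-5p were -0.53 ± 1.48 and 0.46 ± 1.72. The separation thus held for the zebrafish row alone, and any sharing of reads among these rows was not tested.

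Among inflammation-induced miRNAs, dre-miR-146a, which dampens Toll-like receptor signalling by targeting adaptor genes in mammals, held 959, 3222, 28463, 2753 and 14023 CPM at 32 °C against 2558, 1877, 5064, 3438 and 2821 CPM at 28 °C. Replicates 7 and 9 at 32 °C were high and the other 3 lay within or below the 28 °C values; the log2 difference was 1.65 ± 0.80 (adjusted p = 0.230) and 0.18 without replicate 7 at 32 °C. Its paralogue dre-miR-146b averaged 5698 ± 5272 CPM at 32 °C and 3004 ± 1745 CPM at 28 °C (0.92 ± 0.87), and its difference was -0.28 without replicate 7 at 32 °C and -0.39 with the log2 total as a covariate. The list of miR-146, miR-155, miR-21, miR-132, miR-212, miR-147, miR-221 and miR-222 had 14 of 15 rows above 0 and 0 called, with a median of 1.24 that lay 0.38 above that of all rows; under total counts 13 rows were above 0. Its share of the counts was 2.98, 5.75, 13.7, 10.3 and 12.96% at 32 °C and 6.05 to 9.22% at 28 °C, so that 2 libraries at 32 °C were below and 3 were above the 28 °C range.

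The interferon-linked teleost pair miR-462 and miR-731 was higher in mean at 32 °C. The row of dre-miR-731 held 706, 619, 5413, 3777 and 2339 CPM at 32 °C against 458, 1465, 620, 8.15 and 561 CPM at 28 °C. Every value at 32 °C was above the 28 °C median, though replicate 2 at 28 °C exceeded 2 of them; the log2 difference was 2.05 ± 0.91 (adjusted p = 0.187; 1.19 above the median row) and 0.86 without replicate 7 at 32 °C. The row of dre-miR-462 averaged 5003 ± 2682 CPM at 32 °C and 1935 ± 882 CPM at 28 °C (1.37 ± 0.69, adjusted p = 0.250). All 4 tested rows of the pair were above 0 and 0 were called, with a median of 1.71.

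The rows dre-miR-26a-5p, dre-miR-26b and dre-miR-16b were among those with an unadjusted p under 0.05. The row of dre-miR-26a-5p, of a family that targets the histone methyltransferase gene EZH2 in mammals, held 3643, 3516, 50690, 10773 and 24658 CPM at 32 °C against 4704, 1979, 5552, 6867 and 5013 CPM at 28 °C. Replicates 7, 8 and 9 at 32 °C lay above all 28 °C values and replicates 3 and 6 within their range; the difference of 1.95 ± 0.69 (adjusted p = 0.143) was 0.70 without replicate 7 at 32 °C. For dre-miR-26b the means were 8224 ± 11971 CPM at 32 °C and 1601 ± 660 CPM at 28 °C, with a difference of 2.36 ± 0.78 that was 0.46 without that library. Of 8 rows of miR-26, miR-29, miR-101, miR-148 and miR-152, 7 were above 0 and 0 were called, with a median of 2.16.

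The row of dre-miR-16b, of the miR-15/16 family that slows the cell cycle in mammals, held 1682, 2135, 35940, 8955 and 24110 CPM at 32 °C against 3038, 3636, 4144, 3237 and 2048 CPM at 28 °C. The same 3 libraries at 32 °C, replicates 7, 8 and 9, stood above the 28 °C values. The difference was 2.18 ± 0.74 (adjusted p = 0.143) with all libraries and 0.94 without replicate 7 at 32 °C. Relative to the median row it was 1.32 with all libraries and 0.95 without that replicate. Of 9 rows of the family 6 were above 0, 1 had an unadjusted p under 0.05 (20.6% of all rows did) and 0 were called. The median was 0.37 under TMM and -0.17 under total counts. Without replicate 7 at 32 °C the differences of dre-miR-16a, dre-miR-16c-5p and dre-miR-16c-3p were -0.78, -0.17 and -0.47. The row of dre-miR-22a-3p averaged 16528 ± 18582 CPM at 32 °C and 7022 ± 2189 CPM at 28 °C, with a difference of 1.24 ± 0.57 that was -0.26 without replicate 7 at 32 °C. All 4 rows of miR-22 were above 0 under TMM and 3 under RLE scaling or total counts, and 0 were called.

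**Figure D4:**
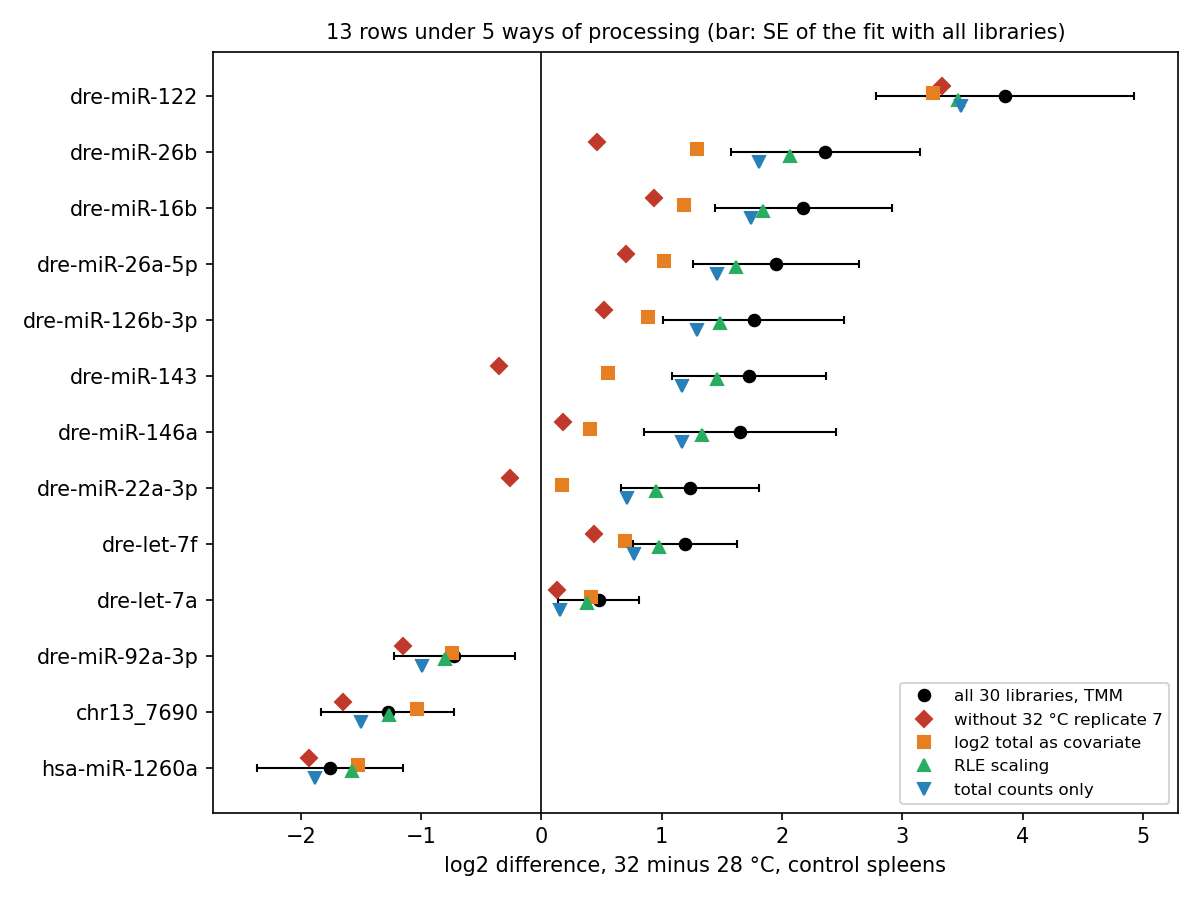
Log2 difference (32 minus 28 °C, control spleens) of 13 rows under 5 ways of processing, with the standard error of the fit that used all 30 libraries and TMM as a bar. The difference of dre-miR-122 lies above 3 under each of the 5 and that of hsa-miR-1260a below -1.5, while dre-miR-143 and dre-miR-22a-3p cross 0 without replicate 7 at 32 °C.

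The remaining families gave no called row. Of 18 rows of the miR-17-92 group 11 were above 0, with a median of 1.108, and the group took 9.89 ± 7.47% of the counts at 32 °C and 18.9 ± 12.5% at 28 °C. Of 20 rows linked to hypoxia and stress (miR-210, miR-34, miR-24, miR-27 and miR-23) 14 were above 0, with a median of 0.59. Of 13 rows of miR-30, 11 were above 0, with a median of 0.94, and the share was 2.17 ± 0.477% at 32 °C and 2.04 ± 0.493% at 28 °C. The 5 rows of miR-10, encoded in the Hox clusters, were all above 0 with a median of 3.30, at 0.150 ± 0.128% of counts at 32 °C and 0.0225 ± 0.0302% at 28 °C. Among them dre-miR-10a-5p had 152.5, 337, 43.6 and 263 CPM in 4 libraries at 32 °C and no count in replicate 3, against a single count in the 28 °C group.

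Counts in 32 °C libraries alone were found for 22 tested rows, 19 of them in 3 or more of the 5 libraries, and counts in 28 °C libraries alone for 1 row. Of the 22 rows, 3 had counts in replicate 3 at 32 °C, 10 in replicate 6, 21 in replicate 7, 21 in replicate 8 and 18 in replicate 9. After thinning to equal totals, 38 of the 364 tested rows had counts at 32 °C alone and 3 at 28 °C alone. These rows had passed the low-count filter at full depth. A row could pass it through the group where it was high, so these counts are no test of a difference. The row with the highest level was dre-miR-733, at 401, 1.19, 42.4, 115 and 493 CPM at 32 °C, at least 229-fold higher than the limit of 3 counts at 28 °C, and at least 151.9-fold without replicate 9 at 32 °C. For dre-miR-25-5p the mean was 76.8 ± 95.1 CPM at 32 °C, at least 83.3-fold higher, and for ccr-miR-27c-5p 67.6 ± 85.0 CPM, at least 73.3-fold higher. Replicate 6 at 32 °C held 62.1% of the sum of dre-miR-25-5p and 63.8% of that of ccr-miR-27c-5p; without it the limits were at least 39.5-fold and at least 33.2-fold. At 24 °C, where the median total was 357366 counts, dre-miR-733 averaged 102 ± 179 CPM and dre-miR-25-5p 65.6 ± 146.7 CPM in controls. The row of ssa-miR-30d-2-3p, with 327, 162, 310.5, 306 and 150.4 CPM at 32 °C and 3.91 and 1.42 CPM in 2 libraries at 28 °C, was at 173 ± 166 CPM in controls at 24 °C.

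Lower values at 32 °C were fewer. The 3 rows that carry the human names miR-1260a, miR-1260b and miR-7977 were all below 0 under TMM, RLE scaling and total counts. The row of hsa-miR-1260a held 5935, 5419, 260, 2241 and 1700 CPM at 32 °C against 14583, 13298, 7592, 6992 and 10152 CPM at 28 °C. All 5 values at 32 °C lay below all 5 at 28 °C, with a difference of -1.76 ± 0.61 (adjusted p = 0.143) and -1.93 without replicate 7 at 32 °C. Relative to the median row it was -2.62 with all libraries and -1.92 without that replicate. The near-identical name hsa-miR-1260b, which may share its reads, gave -1.70 ± 0.61, and hsa-miR-7977 gave -0.97 ± 0.72 (adjusted p = 0.557). These 3 rows made up 0.720 ± 0.688% of the counts at 32 °C and 2.44 ± 0.528% at 28 °C.

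Among rows named by a chromosome, chr13_7690 was the most abundant and averaged 15513 ± 11696 CPM at 32 °C and 37645 ± 16390 CPM at 28 °C (-1.28 ± 0.55, adjusted p = 0.182), with 4 of 5 libraries at 32 °C below the 28 °C median. Of 61 such rows 29 were above 0 and 32 below, 0 were called, and the median of -0.12 lay 0.98 under that of all rows. They held 2.11 ± 1.54% of the counts at 32 °C and 4.92 ± 1.66% at 28 °C. In 2 further rows 1 or 2 libraries at 28 °C held nearly all counts: hsa-let-7d-3p had 862 CPM in replicate 2, 3.005 CPM in replicate 1 and no count in the other 3 or at 32 °C, and mmu-miR-3963 had 5519 and 1868 CPM in replicates 2 and 5 at 28 °C and at most 91.5 CPM at 32 °C. The difference of mmu-miR-3963 was -5.91 ± 2.52 with all libraries, -4.48 without replicate 2 and -6.60 without replicate 5 at 28 °C.

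Over all 364 rows, 6 (1.65%) had every library at 32 °C above every library at 28 °C in TMM-scaled CPM, and 2 (0.549%) had every one below. The 6 were dre-let-7f, dre-miR-122, dre-miR-181c-5p, dre-miR-733, ssa-miR-30d-2-3p and chr6_39607, which was picked after its values were seen and averaged 420.2 ± 199.5 CPM at 32 °C and 48.1 ± 65.3 CPM at 28 °C. The 2 were hsa-miR-1260a and hsa-miR-4502, at 2.82 ± 2.29 CPM at 32 °C and 83.2 ± 166 CPM at 28 °C. Some of these separations rest on values near the floor. In dre-miR-733 the lowest value at 32 °C, in replicate 6, was a single count, and the row had no count at 28 °C. In hsa-miR-4502 the highest value at 32 °C and the lowest at 28 °C were nearly equal, and replicate 5 at 28 °C alone held 380 CPM. Spread within a group was wider at 32 °C: over the 108 rows counted in all 10 libraries the median coefficient of variation was 0.842 at 32 °C and 0.610 at 28 °C, and 78 rows varied more at 32 °C (73 without replicate 7, whose omission left a median of 0.758). Replicate 7 alone held over 50% of the summed CPM of its group in 86 of the 364 rows, against 30, 44, 11 and 27 rows for replicates 3, 6, 8 and 9 at 32 °C. At 28 °C single libraries dominated rows as well, with 57, 46, 46, 31 and 39 rows for replicates 1, 2, 3, 5 and 7.

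The same temperatures were compared in LPS fish, whose libraries the controls do not share. There edgeR called 0 of 364 rows (0%) and 35 had an unadjusted p under 0.05 (9.62%), while DESeq2 called 8 and voom 5 (dre-miR-126a-3p, dre-miR-140-3p, dre-miR-199-3-3p, ssa-miR-214-3p and hsa-miR-3150b-5p). The median row stood at 0.75 and 235 rows were above 0, so that a shared sign is common by itself. Signs were shared in 226 of 364 rows and in 57 of the 75 rows with an unadjusted p under 0.05 in controls, and 14 rows had such a p with the same sign in both. The difference in LPS fish was 1.74 ± 0.98 for dre-miR-122, against 3.85 ± 1.07 in controls, and 3.20 ± 0.85 for dre-miR-146a, against 1.65 ± 0.80 in controls. For hsa-miR-1260a it was -1.82 ± 0.61 in LPS fish and -1.76 ± 0.61 in controls, and for chr13_7690 -1.29 ± 0.55 in LPS fish and -1.28 ± 0.55 in controls.

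**Figure D5:**
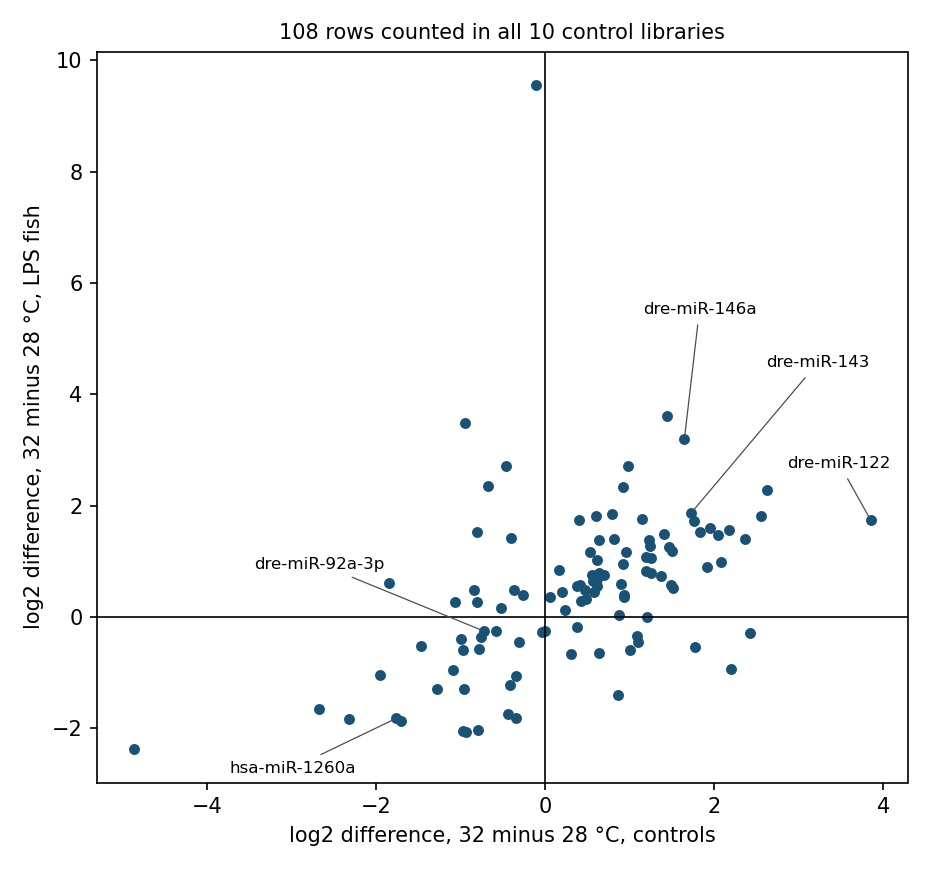
Log2 difference between 32 and 28 °C in LPS fish (vertical) against that in controls (horizontal) for the 108 rows with counts in all 10 control libraries, 1 point a row. The sign was shared by 83 of the 108 rows, among them dre-miR-122, dre-miR-143, dre-miR-146a and hsa-miR-1260a; the point at the top is hsa-miR-3150b-5p.

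Whether the 32 against 28 °C difference itself differed between LPS fish and controls was tested as an interaction in the same fit. It called 0 of 364 rows (0%; smallest adjusted p = 0.313), with 33 at an unadjusted p under 0.05 (9.07%), whereas DESeq2 called 12 and voom 1, dre-miR-140-3p. For dre-miR-122 the interaction p was 0.130 unadjusted. The row of dre-miR-375 had a difference of -0.94 ± 0.88 in LPS fish against 2.20 ± 0.91 in controls, with an unadjusted interaction p of 0.0168. In dre-miR-733, dre-miR-25-5p and ssa-miR-30d-2-3p the difference in LPS fish was 0.78 ± 2.30, -1.43 ± 2.06 and -0.45 ± 1.71, and none of the 3 interactions passed the adjusted threshold.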

How the data were processed

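The authors deposited 1 table of whole-number counts of reads per miRNA row and library, unnormalised; all 30 columns were matched to the labels. Per the submitters' processing notes, bcl2fastq, cutadapt 1.12, FastQC 0.11.5 and DESeq2 1.11.1 were used, without their roles; the sources used here do not give the aligner, the build or the miRNA reference. Per the labels' protocols, 50 ng of RNA per library was joined to adapters with 4 random bases and amplified for 22 cycles; no removal of PCR copies is recorded, so limits from a count of 0 cover counting error alone.

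The low-count filter was filterByExpr of edgeR over 6 groups (364 of the 1591 rows with a count were kept; the rest held 0.265% of the counts of the 10 libraries). Libraries were scaled with TMM, 1 mean per group was fitted to all 30 libraries by edgeR's robust quasi-likelihood method (24 residual degrees of freedom, common biological coefficient of variation 1.79), and p-values were adjusted by Benjamini-Hochberg over all tested rows at a threshold of 0.05. R 4.3.3, edgeR 4.0.16, limma 3.58.1, DESeq2 1.42.0, Python 3.11.15 and SciPy 1.17.1 were used, and the scripts were tested on simulated counts. Pairs of libraries of 1 group differed by a chi-squared per degree of freedom of at least 163, so none was counted as a repeat.

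Rows named are the called rows, by smallest p the 10 higher and 5 lower at a mean of 10 CPM or more, the 10 most abundant, the 2 smallest p of each of the 21 lists, and the zebrafish rows of families an earlier report on these data named for temperature, 63 in all. Another 7 (dre-miR-375, dre-miR-7a, dre-miR-192, dre-miR-451, dre-miR-144-5p, dre-miR-462 and chr6_39607) were picked once their values were known. So were the 5 rows given as lower in the pancreatic, gut and epithelial lists. The same holds for the rows given as lower in the vascular and red cell lists, for the miR-145 and miR-181c rows of other species, and for the rows named in passing for LPS fish. The comparison and all lists were chosen with earlier results of these data known, and lists are described by counts and medians with no test. The alternatives were RLE and total-count scaling, no filter or a stricter one (10 counts in 15 libraries), DESeq2, limma voom with library weights, fits to the 10 or the 15 control libraries, replicate number as a block, the log2 total as a covariate, thinning to equal totals, zebrafish rows alone, rows summed by name and leaving out each library; TMM from full totals and leaving out replicates 7 and 8 at 32 °C were added after seeing the data.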

Additional observations from a re-analysis of the deposited data

Results flagged for a closer look

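A value was marked where 1 library of a group of 5 stood apart from the other 4 by more than 0.71 of the group's range (Dixon's criterion), in named rows with counts in at least 3 libraries of the group. Of 111 groups checked, 21 were marked. The criterion marks about 1 in 20 groups of normally distributed values. CPM values are skewed, the rows were partly picked by small p and they share libraries. The rate expected by chance here is therefore unknown, and 21 of 111 is no measure of an excess.

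Replicate 7 at 32 °C stood high in 10 rows. These were dre-miR-143 at 220449 CPM, dre-miR-451 at 52781 CPM, dre-miR-22a-3p at 49215 CPM, dre-miR-26b at 29473 CPM, dre-miR-126b-3p at 26451 CPM, dre-miR-144-5p at 18404 CPM, dre-miR-126a-3p at 4138 CPM, dre-miR-16a at 1092 CPM, dre-miR-217 at 324 CPM and dre-miR-22b-3p at 174 CPM. The same library had the highest total of the series, 7584818 counts.

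In other libraries at 32 °C, replicate 9 stood high in dre-miR-192 at 4499 CPM and in chr10_2371 at 188 CPM, replicate 6 in ccr-miR-27c-5p at 216 CPM and in ccr-miR-133a-3p at 84.6 CPM, and replicate 3 in mmu-miR-3963 at 91.5 CPM.

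At 28 °C, replicate 5 stood high in dre-miR-126a-3p at 1665 CPM and in hsa-miR-4502 at 380.1 CPM, replicate 3 in ssa-miR-144-5p at 369 CPM and in dre-miR-22b-3p at 9.94 CPM, replicate 1 in ola-miR-146a-5p at 197 CPM, and replicate 7 in dre-miR-192 at 78.6 CPM. Without replicate 5 the other 4 libraries at 28 °C held 6.01 to 12.8 CPM of hsa-miR-4502, against 0.305 to 5.96 CPM at 32 °C.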

How the results depend on the processing

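The count of 0 called rows held under 41 of 45 alternatives, each of the 30 that leave out 1 library included (lowest and highest 0). DESeq2 called 21 and limma voom 44, and fits to the 10 or the 15 control libraries called 1 each, dre-miR-122. The interaction with LPS called 12 rows in DESeq2, 1 in voom and 2 without a filter (hsa-miR-6748-3p and mmu-miR-3963), and 0 with each library left out. Replicate numbers 3 and 7, which both groups hold, gave correlations of deviations of -0.03 and -0.08. So few pairs cannot decide whether replicate numbers pair the libraries. The fit with the replicate block called 0 rows, 34 at an unadjusted p under 0.05. Leaving out 1 library, the log2 difference in totals ran from 0.58 to 1.90 and the difference in detected rows from 89.0 to 268.

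Of 3025 values of the 70 named rows under alternatives, 2825 kept direction and side of the threshold and 40 passed it. The other 160, in 19 rows, changed sign or, for dre-miR-181a-3-3p, fell to 0. Of these, 42 belonged to dre-let-7b, whose difference with all libraries was 0.00. The cause of the changes was not tested. Signs changed for dre-let-7b (-0.035) and dre-miR-16c-3p (-0.079) in DESeq2; for dre-let-7b (-0.035) and dre-miR-16c-3p (-0.079) under RLE; for dre-let-7b (-0.25) and dre-miR-16c-3p (-0.17) under total counts; for dre-let-7b (-0.21) and dre-miR-9-5p (1.67) in voom; for dre-let-7b (-0.21) under the stricter filter; and for dre-let-7b (-0.11) in the 15 control libraries. With TMM from full totals dre-let-7a was -0.0077, dre-let-7b -0.59, dre-let-7c-5p -0.039, dre-miR-145-5p -0.15, dre-miR-16c-3p -0.42 and dre-miR-21 -0.0055. With no filter dre-let-7a was -0.056, dre-let-7b -0.58, dre-let-7c-5p -0.076, dre-miR-145-5p -0.19 and dre-miR-16c-3p -0.40. With the log2 total as a covariate dre-miR-126a-3p was -0.60, dre-miR-126a-5p -0.75, dre-miR-126b-5p -1.39, dre-miR-146b -0.39, dre-miR-16a -1.06, dre-miR-16c-3p -0.36, dre-miR-16c-5p -0.021, dre-miR-21 -0.17, dre-miR-22b-3p -1.03 and dre-miR-451 -0.16. In the 10 libraries alone dre-let-7b was -0.27, dre-miR-16c-3p -0.38 and dre-miR-21 -0.016. With the replicate block dre-let-7b was -0.45, dre-miR-16a -1.03 and dre-miR-9-5p 0.055. With rows summed by name dre-let-7b was -0.16 and dre-miR-150 -0.24. In zebrafish rows alone dre-let-7b was -0.45, dre-let-7c-5p -0.070, dre-miR-16c-3p -0.62 and dre-miR-21 -0.26. Without replicates 7 and 8 at 32 °C dre-miR-126a-5p was -1.16, dre-miR-126b-5p -1.84, dre-miR-143 -0.20, dre-miR-145-5p -0.060, dre-miR-146b -0.53, dre-miR-16a -1.23, dre-miR-16c-3p -0.50, dre-miR-16c-5p -0.23, dre-miR-21 -0.36, dre-miR-22a-3p -0.10, dre-miR-22b-3p -0.92 and dre-miR-451 -0.71. In that fit dre-miR-181a-3-3p, which had counts in 2 libraries at 32 °C and in 0 at 28 °C, was 0.00, which is no change of sign.

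Leaving out 1 library, sign changes came only without replicate 7 at 32 °C for dre-miR-143 (-0.35 to 2.30), dre-miR-126b-5p (-0.33 to 4.23), dre-miR-146b (-0.28 to 1.21), dre-miR-16a (-0.78 to 2.45), dre-miR-16c-5p (-0.17 to 1.86), dre-miR-22a-3p (-0.26 to 1.62), dre-miR-22b-3p (-0.87 to 4.26) and dre-miR-451 (-0.79 to 2.05), and only without replicate 2 at 28 °C for dre-miR-9-5p (-2.76 to 3.74). For dre-let-7b the sign changed without each of the 30 libraries (-0.65 to -0.018), and it changed without several different libraries for dre-let-7a (-0.087 to 0.47), dre-let-7c-5p (-0.10 to 0.48), dre-miR-145-5p (-0.44 to 1.31), dre-miR-16c-3p (-0.57 to 0.33) and dre-miR-21 (-0.23 to 0.68). The median of all rows ran from -0.01 to 1.1102 with 1 library left out and was 0.32 with TMM from full totals, and small differences changed sign with the scaling. Depth limits low rows: 3 counts correspond to 0.396 to 15.0 CPM in single libraries at 32 °C and to 3.60 to 9.86 CPM at 28 °C, and over a whole group to 0.299 CPM at 32 °C and 0.921 CPM at 28 °C.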
